A study of Homo sapiens with 16 samples.

Results

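The 7 genes described here encode inflammatory chemokine ligands: CXCL1, CXCL2, CXCL3, CXCL5, CXCL8, CCL2 and CCL20. They were chosen by symbol, several being reported targets of the RNase Regnase-1, and all 7 had values among the 18227 genes measured. The data are RNA-seq levels from A549 and H2023, established cell lines from human non-small cell lung cancers. Each line was grown as wild type and as a ZC3H12A knockout, ZC3H12A being the gene for Regnase-1. Cells were kept in normal culture for 3 days or in a stem-cell-enriched culture (oncospheres) for 7 days, which makes 8 groups of 2 libraries. No inflammatory stimulus is named for any group. The knockout libraries come from 1 clone per line, named g2-3 in A549 and g2-1 in H2023, so a difference from wild type cannot be told apart from other features of that clone. Nothing says whether the 2 libraries of a group came from separate cultures, so p-values measure only the spread between these libraries. Culture type and days in culture changed together.

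Chemokine ligands are small secreted proteins that direct the migration of cells bearing matching receptors. CXCL1, CXCL2, CXCL3, CXCL5 and CXCL8 (interleukin-8) bind CXCR2, CXCL8 also binds CXCR1, and these ligands attract neutrophils. CCL2 binds CCR2 and attracts monocytes, while CCL20 binds CCR6 and attracts dendritic cells and subsets of lymphocytes. Epithelial cells transcribe such genes after NF-kB activation, and the mRNAs are short-lived. AU-rich elements in the 3′ UTR recruit decay factors such as tristetraprolin (ZFP36), and Regnase-1 cleaves mRNAs at stem-loops with a pyrimidine-purine-pyrimidine loop.

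The sequences upstream of the genes are shown first, and their part in the levels was not tested. CXCL8, CXCL1, CXCL5, CXCL3 and CXCL2 lie within 358.8 kb of chromosome 4, a span that holds 9 protein-coding genes in GENCODE on GRCh38. No annotated gene overlaps any member. Promoter sequence from RefSeq (GRCh38.p14) was matched for 6 of 7 members, all but CCL2. The 250 bases before each gene start were searched on both strands for the NF-kB motif GGAATTTCC. CXCL1, CXCL2, CXCL3, CXCL5 and CXCL8 each held 1 match, whereas 0.41% of all 35116 promoters of the same length held one. The 130 bases before the start are printed 5′ to 3′ on the gene's strand, with that motif in capitals for the CXC genes. For CCL20 the capitals mark a looser NF-kB motif, GGG and CC with any 5 bases between them.
CXCL1, chr4:73869263-73869392, + strand: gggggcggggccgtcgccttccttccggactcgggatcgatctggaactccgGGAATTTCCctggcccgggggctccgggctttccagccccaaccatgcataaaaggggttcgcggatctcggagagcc
CXCL2, chr4:74099196-74099325, - strand: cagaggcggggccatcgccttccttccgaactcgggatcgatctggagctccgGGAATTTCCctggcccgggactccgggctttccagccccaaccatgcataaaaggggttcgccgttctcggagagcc
CXCL3, chr4:74038690-74038819, - strand: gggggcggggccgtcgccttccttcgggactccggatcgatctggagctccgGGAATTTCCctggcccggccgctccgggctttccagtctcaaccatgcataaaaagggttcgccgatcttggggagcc
CXCL5, chr4:73998678-73998807, - strand: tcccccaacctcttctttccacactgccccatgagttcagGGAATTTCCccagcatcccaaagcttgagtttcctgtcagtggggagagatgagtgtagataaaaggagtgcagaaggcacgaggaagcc
CXCL8, chr4:73740439-73740568, + strand: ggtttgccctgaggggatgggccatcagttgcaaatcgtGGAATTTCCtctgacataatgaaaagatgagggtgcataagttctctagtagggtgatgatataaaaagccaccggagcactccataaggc
CCL20, chr2:227813712-227813841, + strand: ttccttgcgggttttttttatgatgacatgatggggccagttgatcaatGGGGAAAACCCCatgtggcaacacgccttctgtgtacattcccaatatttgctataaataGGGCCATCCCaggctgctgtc

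The GGAATTTCC match began 78 bases before the start in CXCL1 and CXCL3, 77 in CXCL2, 90 in CXCL5 and 91 in CXCL8. The looser motif overlaps that match in 4 of the 5 genes, all but CXCL8, and occurs in 54.43% of all promoters. An AP-1 motif, TGANTCA, was found in CXCL8 alone of the 6, beginning 137 bases before the start, and in 6.57% of all promoters. CXCL1, CXCL2 and CXCL3 are close copies of one another. Their coding sequences are 90.7% to 94.4% identical, against 58.9% to 66.1% for any pair with CXCL5 or CXCL8. Reads shared among CXCL1, CXCL2 and CXCL3 could be split between them by the authors' counting, so the values of these 3 genes are not fully independent.

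**Figure D1:**
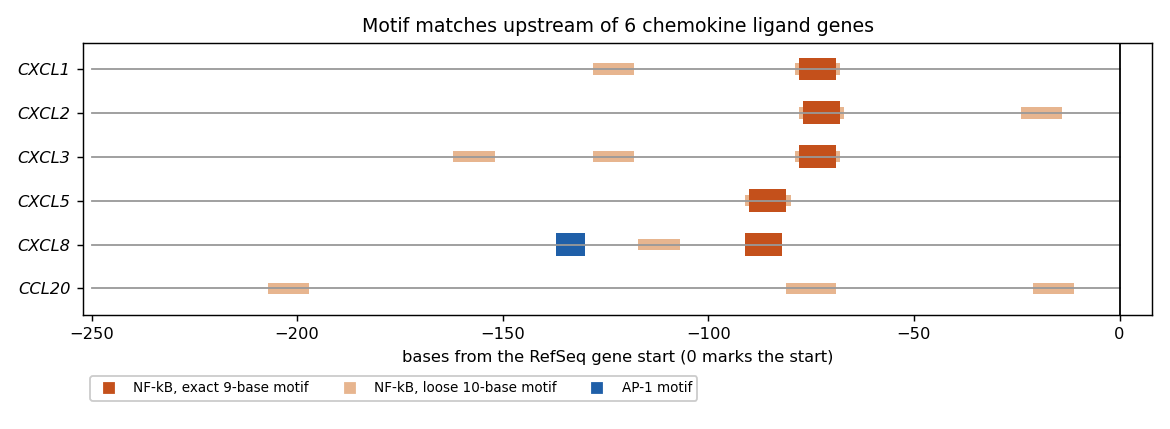
Positions of motif matches in the 250 bases before the RefSeq gene start of 6 chemokine ligand genes. The x axis is the distance in bases from the start, and each bar is a match on either strand. The exact NF-kB motif stands 77 to 91 bases before the start in all 5 CXC genes, and CCL20 has loose matches only.

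The 3′ UTRs of the members, apart from that of CCL2, are rich in AU pentamers. The longest annotated 3′ UTR of each gene held ATTTA at 7.08 per kb in CXCL1, 13.87 in CXCL2, 10.4 in CXCL3, 5.51 in CXCL5, 7.19 in CXCL8, 2.11 in CCL2 and 6.24 in CCL20. Across 8003 genes with 3′ UTRs of 473 to 1995 bases, the range of the members, the median was 1.57 per kb and the 95th percentile 6.1. The longer AU-rich element TTATTTATT occurred in 4 members and in 5.75% of those genes. It was present 3 times in CXCL1, 5 times in CXCL2 and once each in CXCL3 and CXCL8. One site per gene is printed with the element in capitals, and positions are counted from the first base of the 3′ UTR.
CXCL1, position 487: gtcagttgTTATTTATTgaaatgat
CXCL2, position 492: gtcagttgTTATTTATTgaaatgat
CXCL3, position 471: gtcagttgTTATTTATTcaaattat
CXCL8, position 210: gtaaagtaTTATTTATTtgaatcta

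Stem-loops of at least 5 perfect pairs around a TAT or TGT loop, the shape associated with Regnase-1 cleavage, were found in 2 members and in 8.72% of the genes of that length. They are printed with the loop in capitals.
CXCL3, position 297: actaaTATttagt
CXCL5, position 1796: atataTATtatat
These matches describe the letters of the reference, and no binding or cleavage was measured.

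The expression values are TPM, a transcript abundance scaled for gene length and for the library total. Each value is a share of its library, so a change in other genes also moves it. The number of reads per library is unknown, because TPM does not keep it, and the deposited mean normalized counts are averages over 4 libraries. The replicates of a group correlated across genes with r of 0.983 to 0.992. The mitochondrial share of TPM was 10.3% to 18.7% in the 8 libraries of normal culture and 19.53% to 25.58% in the 8 oncosphere libraries. Of the 12 epithelial markers listed, 9 had values, and KRT7, KRT8 and KRT18 were at 630.21 TPM or more in all 16 libraries. NKX2-1, SFTPB and SFTPC, markers of alveolar cells, were not analysed here. Of 13 leukocyte markers 4 had values: ITGAM stayed at or below 3.2 TPM, LYZ reached 18.56, CD14 reached 47.61 and CD68 ranged from 28.7 to 178.89 TPM. PTPRC and CD3E were not analysed here.

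The targeted gene was checked first. In A549 normal culture wild type had ZC3H12A at 30.72 and 34.88 TPM, and the libraries labelled knockout had 16.9 and 19.93 TPM. H2023 oncospheres had 32.54 and 26.41 TPM in wild type and 94.61 and 69.18 TPM with the knockout label. The mean was also higher with the knockout label in A549 oncospheres (57.9 against 48.8 TPM) and H2023 normal culture (41.5 against 28.3 TPM). The mRNA level therefore went against the label in 3 of 4 comparisons, an edit need not lower it, and the libraries are called "labelled knockout" throughout.

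CXCL5 was the most abundant member in all 16 libraries and supplied 42.5% to 78.8% of the summed level of the 7 genes. In A549 wild type the sum was 1779 and 2085 TPM in normal culture, and 3715 and 2865 TPM in oncospheres. In H2023 wild type it was lower, at 565.4 and 406.2 TPM in normal culture and 834.7 and 902.1 TPM in oncospheres. The wild-type lines also ranked the members differently. In A549 normal culture the means fell in the order CXCL5, CXCL1, CCL2, CXCL8, CXCL3, CXCL2 and CCL20, and the libraries of neighbours overlapped from CXCL3 to CCL20. In H2023 normal culture the order was CXCL5, CXCL2, CCL2, CXCL1, CXCL3, CXCL8 and CCL20, with overlap between CXCL2 and CCL2. CCL20 was listed at 0 in all 4 H2023 libraries of normal culture and reached 3.74 TPM at most in the stem-cell-enriched ones. Its deposited mean normalized count in H2023 normal culture was 0.9999, so 0 TPM does not mean that no read was counted.

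**Figure D2:**
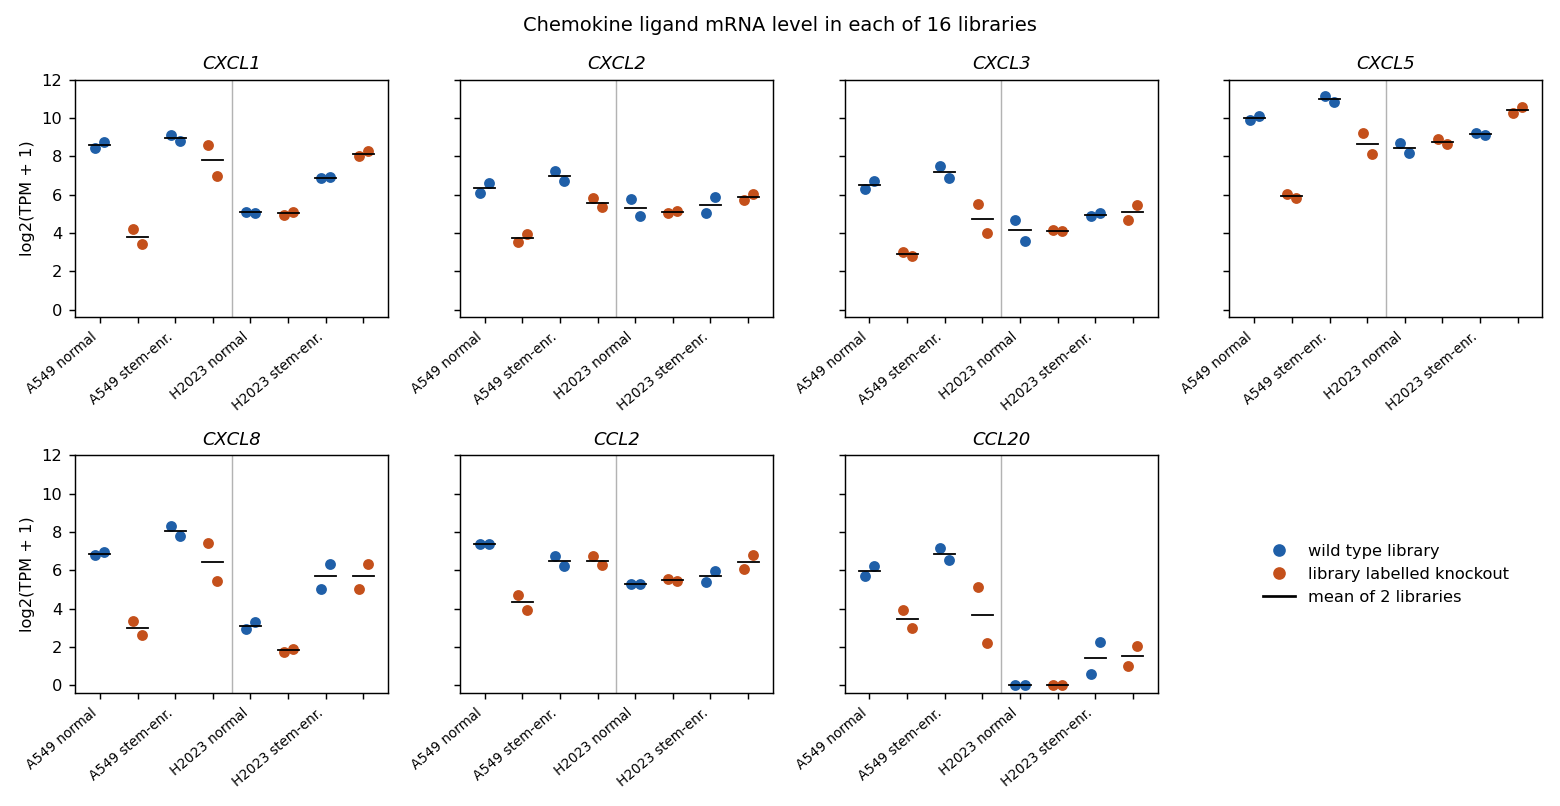
Level of each chemokine ligand in each library, as log2(TPM + 1), by cell line and culture. Each point is 1 library and each black line the mean of 2; blue is wild type and orange the libraries labelled knockout. In A549 normal culture every orange point lies far below the blue ones, while in H2023 the colours lie close together or orange lies above blue, apart from CXCL8 in normal culture.

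In A549 normal culture all 7 ligands were lower in the libraries labelled knockout, and all 7 passed the test. The test was limma on log2(TPM + 1), with adjusted p-values over all genes, where 6.28% of genes were called lower. The authors' deposited table also called all 7 lower, against 10.9% of its genes. The median log2 difference of the 7 was -3.6, and that of all genes was -0.03. In no member did a knockout-labelled library reach a wild-type one, a pattern that 34.6% of all genes showed.

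Among the neutrophil attractants CXCL5 was the most abundant and CXCL1 fell the most. CXCL5 stood at 955.11 and 1095.96 TPM in wild type and at 64.98 and 55.23 TPM with the knockout label. Its log2 difference was -4.07 ± 0.13 (SE; adjusted p = 0.00151, limma). CXCL1 went from 348.1 and 426.62 TPM to 17.2 and 9.73 TPM, which is 28.8 times less on average, with a log2 difference of -4.79 ± 0.27 (SE; adjusted p = 0.00465, limma). Both libraries of either gene shifted by far more than the gap between replicates.

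CXCL8 stood at 109.33 and 123.55 TPM in wild-type libraries against 9.32 and 5.1 TPM, a log2 difference of -3.89 ± 0.26 (SE; adjusted p = 0.00533, limma). CXCL3 stood at 79.1 and 103.59 TPM against 7.1 and 6.03 TPM, a log2 difference of -3.6 ± 0.17 (SE; adjusted p = 0.00369, limma). CXCL2 fell less than its close copies, from 67.5 and 98.46 TPM to 10.38 and 14.72 TPM, a log2 difference of -2.63 ± 0.24 (SE; adjusted p = 0.00949, limma). Within the trio CXCL1 was well above CXCL2 in wild type, and the libraries of the pair overlapped in those labelled knockout. The difference between the falls of CXCL1 and CXCL2 was not tested.

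The CC ligands fell as well. CCL2, the monocyte attractant, stood at 168.19 and 162.63 TPM in wild type and 25.57 and 14.27 TPM with the knockout label, with a log2 difference of -3.05 ± 0.26 (SE; adjusted p = 0.00825, limma). CCL20 stood at 52.15 and 74.23 TPM against 14.31 and 6.89 TPM, with a log2 difference of -2.52 ± 0.35 (SE; adjusted p = 0.019, limma). It was the smallest of the 7 falls, and with the spread estimated over the 8 A549 libraries its adjusted p was 0.0683.

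With any 1 of the 4 libraries left out, limma called 0 of the 18227 genes, the members included, because 3 libraries leave almost no estimate of the spread. The log2 differences remained large, from -5.17 to -4.41 for CXCL1, from -4.19 to -3.96 for CXCL5 and from -3 to -2.05 for CCL20. In the same libraries the summed level of the 9 epithelial markers was 9353 and 9184 TPM in wild type and 5022 and 2590.2 TPM in those labelled knockout. Limma called 4 of the 9 lower and 1 higher, against 6.28% and 4.54% of all genes. The part of that shift in the chemokine result was not tested. The summed level of the 4 leukocyte markers was 62.1 and 46.9 TPM against 48.8 and 35.8 TPM. In bulk RNA, fewer cells that transcribe a gene and less mRNA per cell cannot be told apart.

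In A549 stem-cell-enriched culture fewer ligands passed the test, although 6 of 7 were lower in both libraries labelled knockout than in both wild-type ones. Here 3 of the 7 ligands passed the test, all of them lower, against 7.2% of all genes called lower by limma. The same 3 were called lower in the authors' deposited table, where 11.4% of genes were. CXCL5 stood at 2264.4 and 1817.55 TPM in wild type and 592.98 and 275.04 TPM with the knockout label, a log2 difference of -2.33 ± 0.37 (SE; adjusted p = 0.0189, limma). For CXCL3 the levels were 176.85 and 118.09 TPM against 44.69 and 14.92 TPM, a log2 difference of -2.43 ± 0.51 (SE; adjusted p = 0.0378, limma). For CXCL2 they were 150.56 and 105.97 TPM against 55.06 and 40.11 TPM, a log2 difference of -1.41 ± 0.23 (SE; adjusted p = 0.0193, limma).

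The other 4 did not pass. CXCL1 stood at 560 and 440.64 TPM against 391.79 and 126.72 TPM, a log2 difference of -1.15 ± 0.52 (SE) with a 95% interval from -2.45 to 0.15. CXCL8 stood at 313.23 and 217.89 TPM against 169.98 and 41.88 TPM, a log2 difference of -1.61 ± 0.64 (SE; adjusted p = 0.164, limma). CCL20 stood at 145.07 and 92.48 TPM against 33.94 and 3.68 TPM, a log2 difference of -3.19 ± 0.92 (SE; adjusted p = 0.083, limma). With the spread estimated over the 8 A549 libraries or over all 16, CCL20 passed (adjusted p = 0.0268 and 0.0111, limma). CXCL1, CXCL8 and CCL20 were lower in both libraries labelled knockout than in both wild-type ones, as were 27.8% of all genes.

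CCL2 alone showed no gap between the groups. Its levels were 105.21 and 72.79 TPM in wild type and 105.45 and 77.18 TPM with the knockout label, and the 95% interval of the log2 difference ran from -0.54 to 0.62. Among all 7 members, replicate 1 of the knockout-labelled group was above replicate 2, by 1.37 times for CCL2 up to 9.22 times for CCL20. Over all genes with a mean of at least 1 TPM in that group, 49.6% were higher in replicate 1. In the wild-type group replicate 1 was also above replicate 2 for all 7, by 1.25 times for CXCL5 up to 1.57 times for CCL20. There 55.9% of genes were higher in replicate 1. Without knockout-labelled replicate 2 the log2 difference was -0.34 for CXCL1, -0.62 for CXCL8 and -1.74 for CCL20. Without knockout-labelled replicate 1 it was -1.96, -2.61 and -4.64. With any 1 of the 4 libraries left out, limma called 0 members, and at most 38 genes of all.

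Marker genes also differed in this comparison. Of 9 epithelial markers limma called 3 lower and 0 higher, against 7.2% and 6.04% of all genes. These were MUC1, KRT19 (46.81 and 101.25 TPM against 3.29 and 5.92 TPM) and EPCAM (9.4 and 7.94 TPM against 0.82 and 1.03 TPM). The summed level of the 4 leukocyte markers was 246 and 153 TPM in wild type and 79.8 and 60.1 TPM with the knockout label. Limma called 2 of the 4 lower, and CD14 overlapped between the groups (47.61 and 26.79 TPM against 34.34 and 28.97 TPM). CD68 and LYZ passed the test, at 178.89 and 117.45 TPM against 44.49 and 29.66 TPM for CD68 and at 18.56 and 6.81 TPM against 0.28 and 0 TPM for LYZ. CD68 encodes a lysosomal protein of macrophages and LYZ encodes lysozyme, and both are also made by epithelial cells. The part of these shifts in the chemokine result was not tested.

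In H2023 normal culture the ligands did not follow the pattern of A549. By limma 0 of 7 passed, and 0.0% of all genes did, although 3314 genes were at an unadjusted p below 0.05. The authors' deposited table called 6.97% of genes lower, and 1 member was among them, CXCL8. CXCL8 stood at 6.55 and 9.03 TPM in wild type and at 2.37 and 2.71 TPM with the knockout label. Its log2 difference was -1.3 ± 0.22 (SE; adjusted p = 0.149, limma), and -1.48 ± 0.4 (SE; adjusted p = 0.00458) in the authors' deposited table. When genes with a mean under 1 TPM were left out, limma called CXCL8 as well, with an adjusted p of 0.0267. With that filter it called 481 of 14449 genes. Of 18227 genes it called 322 with the libraries centred, 147 over the 8 H2023 libraries and 546 over all 16, no member among them.

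CXCL5, the dominant ligand, stood at 409.04 and 287.09 TPM in wild type and at 473.7 and 403.64 TPM with the knockout label, with overlap and a 95% interval of the log2 difference from -0.22 to 0.92. CXCL1 stood at 33.82 and 31.73 TPM against 29.88 and 33.42 TPM, with a 95% interval from -0.33 to 0.23. A fall of the size seen in A549 lies outside both intervals. CXCL2 and CXCL3 overlapped between the groups too. CCL2 was slightly higher in both libraries labelled knockout, at 46.03 and 42.78 TPM against 37.91 and 38.54 TPM, as were 26.1% of all genes (adjusted p = 0.293, limma). CXCL8 was the only member with both libraries labelled knockout below both wild-type ones, as were 24.5% of all genes.

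In H2023 stem-cell-enriched culture CXCL1, CXCL5 and CCL2 had higher levels in both libraries labelled knockout than in both of wild type. Limma called 0 of 7 members and 0.0% of all genes, with 2828 genes at an unadjusted p under 0.05. The authors' deposited table called CXCL1 and CXCL5 higher, against 2.22% of its genes. CXCL1 stood at 114.52 and 119.96 TPM in wild type and at 260.97 and 305.32 TPM with the knockout label, 2.42 times more on average. Its log2 difference was 1.26 ± 0.12 (SE; adjusted p = 0.208, limma), and 1.21 with an adjusted p of 9.55e-08 in the authors' deposited table. CXCL5 stood at 585.94 and 545.9 TPM against 1215.09 and 1527.58 TPM, with a log2 difference of 1.27 ± 0.17 (SE; adjusted p = 0.212, limma), and 1.19 with an adjusted p of 6.01e-07 in the authors' deposited table. With the spread estimated over the 8 H2023 libraries, limma called both, with adjusted p-values of 0.0154 and 0.0458. In that fit it called 281 of 18227 genes.

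CCL2 also had libraries that did not overlap, at 41.55 and 62.36 TPM in wild-type libraries against 65.87 and 110.77 TPM, with a log2 difference of 0.74 ± 0.34 (SE; adjusted p = 0.399, limma). Both libraries labelled knockout were above both wild-type ones for 28.6% of all genes. CXCL8 varied within the groups more than between them: it stood at 31.92 and 80.08 TPM in wild type and 32.07 and 79.38 TPM with the knockout label. Its 95% interval, from -1.84 to 1.83 with the libraries taken as unpaired, leaves a change of more than 3 times in either direction undecided. Same-numbered libraries of the 2 groups lay close to each other for CXCL8, although the labels do not pair them. Over 14369 genes, differences between replicates 1 and 2 correlated at 0.476 between these groups. CXCL2, CXCL3 and CCL20 overlapped between the groups. In the same libraries the summed level of the 9 epithelial markers was 4379 and 4683 TPM in wild type and 7796 and 8311 TPM with the knockout label, and that of the 4 leukocyte markers was 32.2 and 92.3 TPM and 74.6 and 136 TPM. The part of these shifts in the chemokine result was not tested.

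**Figure D3:**
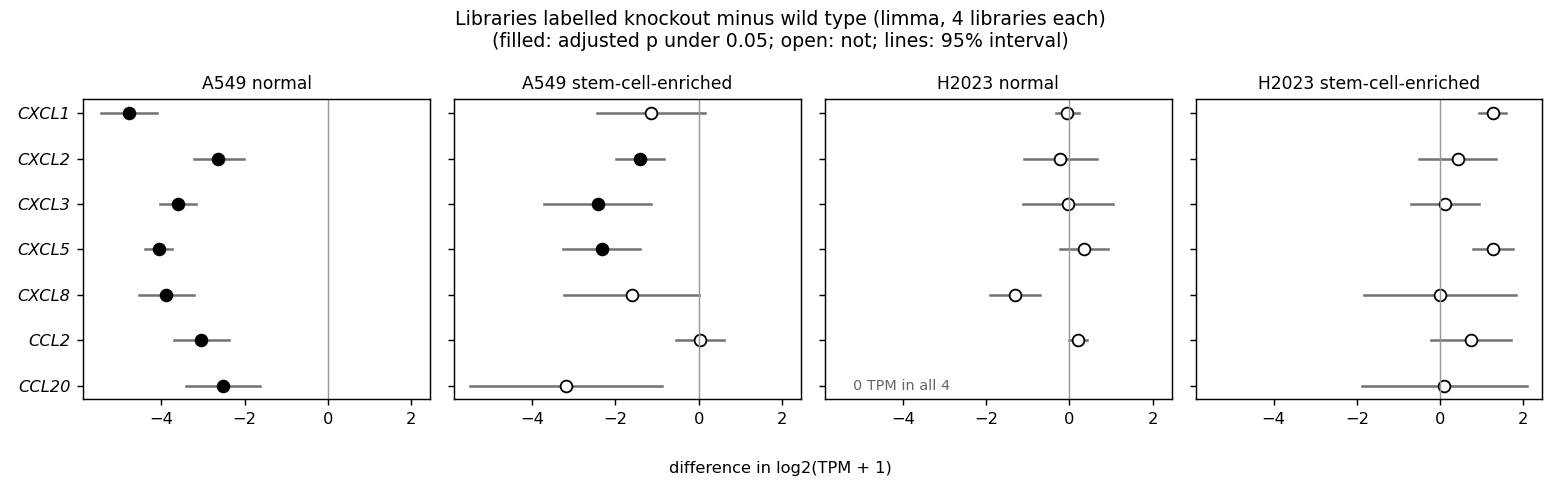
Difference between libraries labelled knockout and wild type for each ligand, in log2(TPM + 1), by line and culture. Points are limma estimates over 4 libraries, lines their 95% intervals, and filled points passed an adjusted p of 0.05. All 7 points are filled and between -4.79 and -2.52 in A549 normal culture, 3 are filled in A549 stem-cell-enriched culture and none in H2023.

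Cultures and lines were compared for the size of the knockout effect, by subtracting log2 fold changes taken from the authors' deposited tables. For A549 the effect was less negative in stem-cell-enriched than in normal culture for 5 of 7 ligands, where 4.98% of all genes shifted that way. The difference was 3.8 ± 0.81 (SE) for CXCL1, 2.99 ± 0.36 for CCL2, 2.61 ± 0.91 for CXCL8, 1.78 ± 0.57 for CXCL5 and 1.24 ± 0.37 for CXCL2. A limma interaction term called 2 of these 5, against 3.52% of all genes: CXCL1 (adjusted p = 0.0245) and CCL2 (adjusted p = 0.00938). CXCL3 and CCL20 did not pass either test. With 1 library left out the interaction called between 1 and 4 members. The standard error for CCL2, which had fallen in normal culture and was level between the groups in oncospheres, was the smallest of the 7.

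In H2023 the effect of CXCL1 was more positive in stem-cell-enriched culture by 1.23 ± 0.27 (SE; adjusted p = 0.00178, from the deposited fold changes), where 0.427% of all genes shifted that way. The limma interaction for CXCL1 was 1.31 ± 0.15 (SE) with an adjusted p of 0.193, and it called 0 members and 0.0% of all genes. CXCL5 differed by 0.86 ± 0.26 (SE; adjusted p = 0.125, from the deposited fold changes).

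Between the lines, the knockout effect in normal culture was more positive in H2023 for all 6 ligands that could be tested, where 8.88% of all genes shifted that way. CCL20, listed at 0 in H2023, could not be tested. The largest differences were 4.75 ± 0.3 (SE) for CXCL1 and 4.37 ± 0.22 for CXCL5, and the smallest were 2.47 ± 0.47 for CXCL8 and 2.42 ± 0.37 for CXCL2. The limma interaction also called these 6, and CCL20 with an interaction of 2.52 ± 0.45 (SE), where it called 6.89% of all genes in that direction. For CCL20 the interaction sets the A549 fall against 0 TPM in H2023. In stem-cell-enriched culture 4 of 7 differed, where 8.07% of all genes shifted that way: CXCL5 by 3.45 ± 0.58 (SE), CXCL3 by 2.48 ± 0.8, CXCL1 by 2.19 ± 0.8 and CXCL2 by 1.71 ± 0.43. Against 5.83% of all genes, the limma interaction called 2 of these, CXCL5 (adjusted p = 0.00556) and CXCL2 (adjusted p = 0.0397), and between 1 and 4 members with 1 library left out. Each comparison of lines also compares 2 different clones.

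**Figure D4:**
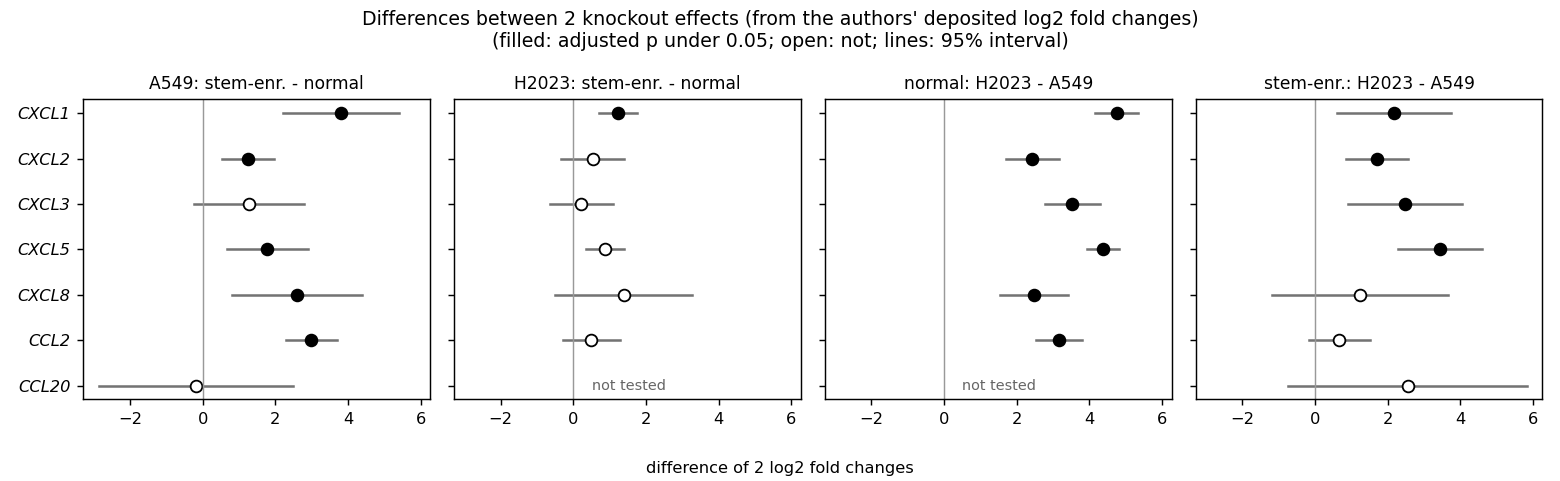
Differences between pairs of knockout effects for each ligand, on the log2 scale, from the fold changes in the authors' deposited tables. Points are differences, lines their 95% intervals, and filled points passed an adjusted p of 0.05. All 6 tested ligands are filled in the comparison of lines in normal culture, at 2.42 to 4.75, and only CXCL1 is filled in the comparison of cultures in H2023.

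The cultures were then compared by limma, for each genotype, in a fit over the 8 libraries of each line. In A549 wild type 1 of 7 ligands rose, CXCL5, and 1 fell, CCL2, against 19.0% of all genes called higher and 21.6% called lower. The values of CXCL5, given above, rose by 0.99 ± 0.31 (SE; adjusted p = 0.0352, limma) on the log2 scale. CCL2 went from 168.19 and 162.63 TPM in normal culture to 105.21 and 72.79 TPM, a log2 difference of -0.91 ± 0.28 (SE; adjusted p = 0.0309, limma). The other 5 ligands were higher in both stem-cell-enriched libraries than in both normal ones, as were 33.7% of all genes, and did not pass. Neither call held in general: without 1 library, CXCL5 lost its call in each of 4 cases (adjusted p = 0.0662 to 0.16) and CCL2 in 3 of 4, all but the one without stem-cell-enriched replicate 1.

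In A549 libraries labelled knockout 6 of 7 ligands rose in stem-cell-enriched culture, against 10.9% of all genes. CXCL1 rose from 17.2 and 9.73 TPM in normal culture to 391.79 and 126.72 TPM. The log2 difference was 4 ± 0.47 (SE; adjusted p = 0.00112, limma). CXCL8 rose by 3.43, CXCL5 by 2.73, CCL2 by 2.18 and both CXCL2 and CXCL3 by 1.84 on the log2 scale. CCL20 differed by 0.22 ± 0.8 (SE). CXCL3 lost its call without replicate 1 or replicate 2 of normal culture (adjusted p = 0.0782 and 0.104, limma). CCL20 stood at 1.67 (adjusted p = 0.047, limma) without stem-cell-enriched replicate 2 and at -1.23 without replicate 1. Even after the rise the summed level of the 7, 1394 and 579.5 TPM, lay below that of wild type in normal culture.

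In H2023 wild type 3 of 7 ligands rose in stem-cell-enriched culture, against 3.96% of all genes called higher. CXCL1 rose from 33.82 and 31.73 TPM in normal culture to 114.52 and 119.96 TPM. The log2 difference was 1.81 ± 0.11 (SE; adjusted p = 7.97e-04, limma). CXCL8 rose from 6.55 and 9.03 TPM in normal culture to 31.92 and 80.08 TPM. The log2 difference was 2.57 ± 0.53 (SE; adjusted p = 0.0203, limma). CXCL5 rose by 0.72 ± 0.2 (SE; adjusted p = 0.0478, limma). CXCL1 passed whichever library was left out. CXCL8 and CXCL5 each lost the call in 3 of 4 cases: CXCL8 without normal replicate 1 or 2 or stem-cell-enriched replicate 2 (adjusted p = 0.0703 to 0.1), and CXCL5 without normal replicate 2 or either stem-cell-enriched replicate (adjusted p = 0.12 to 0.174).

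In H2023 libraries labelled knockout 4 of 7 rose, against 7.68% of all genes. CXCL1 rose by 3.12 ± 0.11 (SE; adjusted p = 1.68e-04, limma), from 29.88 and 33.42 TPM to 260.97 and 305.32 TPM. CXCL8 rose by 3.87 ± 0.53 (SE), from 2.37 and 2.71 TPM to 32.07 and 79.38 TPM, and CXCL5 rose by 1.64 ± 0.2 (SE). CCL2 rose by 0.93 ± 0.27 (SE; adjusted p = 0.0487, limma), a call lost without either normal replicate or stem-cell-enriched replicate 2 (adjusted p = 0.152 to 0.179). CCL20, listed at 0 in normal culture, was at 1 and 3.11 TPM in stem-cell-enriched culture and at 0.51 and 3.74 TPM in wild type there, and it did not pass in either (adjusted p = 0.0893 and 0.117, limma). With a pseudocount of 0.1 TPM it passed in both (adjusted p = 0.0175 and 0.0267, limma), while CCL2 in the libraries labelled knockout no longer passed (adjusted p = 0.0508, limma), nor did it when only the 4 libraries compared were fitted (0.0847). Centring the libraries or leaving out mitochondrial genes changed no call of a member in any of the 4 culture comparisons. The counts over all genes did change. In H2023 wild type 3901 genes were called in either direction in the main fit, 2715 with centring and 2283 without mitochondrial genes. The shares of all genes printed beside the culture results belong to the main fit. Marker levels moved with the culture as well. The summed level of the leukocyte markers was 35.8 to 62.1 TPM in A549 normal culture and 60.1 to 246 TPM in A549 oncospheres. In H2023 it was 41.6 and 37.8 TPM in normal culture and 32.2 and 92.3 TPM in oncospheres of wild type, and 40.4 and 34.4 TPM and 74.6 and 136 TPM with the knockout label. The summed level of the epithelial markers in H2023 was 9428 and 8778 TPM in normal culture and 4379 and 4683 TPM in oncospheres of wild type, and 13052 and 12341 TPM and 7796 and 8311 TPM with the knockout label. In both H2023 genotypes the oncosphere libraries thus lay below those of normal culture. In A549 it was 9353 and 9184 TPM and 6732 and 7591 TPM in wild type, and 5022 and 2590.2 TPM and 5686 and 7856 TPM with the knockout label. The highest gene in each sum was a keratin, so the sums do not stand for the whole list. In A549 wild type limma called 6 of the 9 higher and 0 lower, against 19.0% and 21.6% of all genes. In A549 libraries labelled knockout 5 were higher and 1 lower (all genes: 1985 and 1799 of 18227). In H2023 the counts were 1 and 3 in wild type (721 and 3180) and 2 and 3 with the knockout label (1400 and 3495). The part of these shifts in the chemokine results was not tested.

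**Figure D5:**
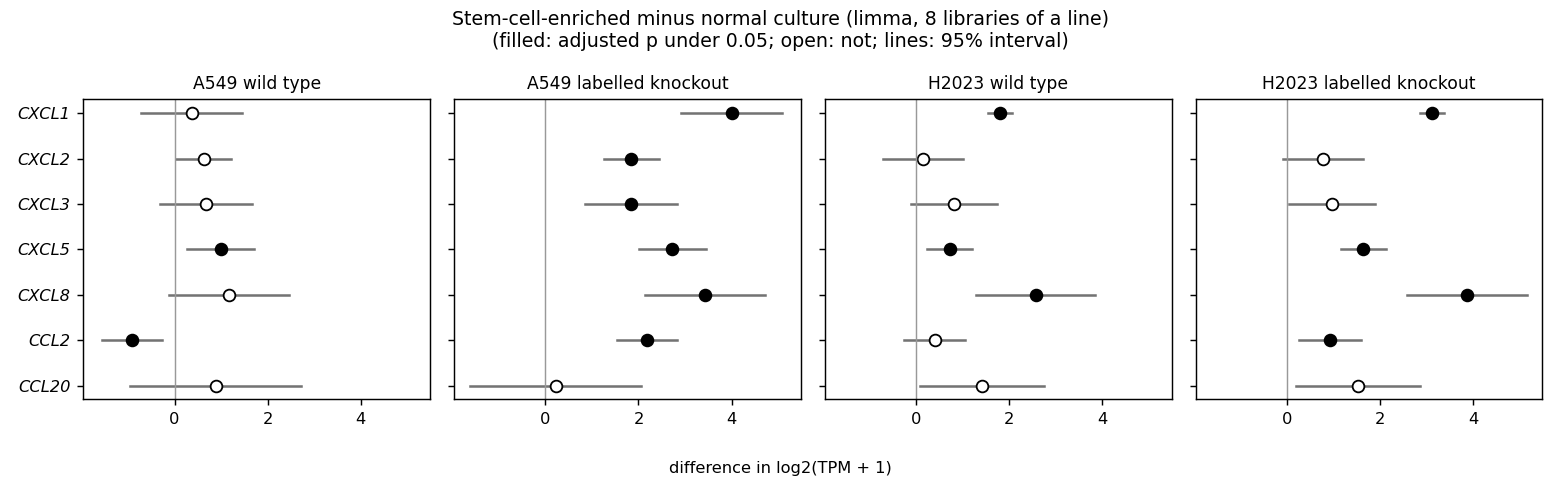
Difference between stem-cell-enriched and normal culture for each ligand, in log2(TPM + 1), by line and genotype. Points are limma estimates over the 8 libraries of a line, lines their 95% intervals, and filled points passed an adjusted p of 0.05. CXCL5 is filled in all 4 panels, CXCL1 in all but A549 wild type, and CCL2 lies below 0 in A549 wild type and above 0 elsewhere.

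Other genes of the chemokine system were described from lists, with the same tests. Limma called 4.54% of all genes higher and 6.28% lower in A549 normal culture, and 6.04% higher and 7.2% lower in A549 stem-cell-enriched culture, and the counts below of 1 to 3 genes per list and direction stand beside those shares. Of 4 other CXC ligands with values, 1 fell in A549 normal culture and 2 in A549 stem-cell-enriched culture by limma. These were PF4 and PPBP, platelet chemokines whose genes lie in the same cluster on chromosome 4. PPBP stood at 2.38 and 2.22 TPM in wild type oncospheres against 0.11 and 0.11 TPM, and PF4 at 3.52 and 4.69 TPM against 1.28 and 0.11 TPM. CXCL16 stood at 61.15 and 33.49 TPM against 15.62 and 20.72 TPM, and was called lower in the authors' deposited table (adjusted p = 7.12e-08) and not by limma (adjusted p = 0.0533).

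Of 5 other CC and CX3C ligands 1 fell in each A549 culture by limma. CCL24, an eosinophil attractant, stood at 19.04 and 16.91 TPM in wild type oncospheres and at 0.95 and 0.64 TPM in those labelled knockout. In normal culture it was at 0.41 and 0.51 TPM in wild type. CX3CL1, the ligand of CX3CR1, stood at 3.63 and 1.1 TPM in wild type oncospheres and at 0 and 0.16 TPM in those labelled knockout, and passed in the authors' deposited table only (adjusted p = 1.02e-07).

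Of 9 chemokine receptors with values, 1 rose in A549 normal culture and 2 rose and 2 fell in A549 stem-cell-enriched culture by limma. CXCR1, CXCR2, CCR2 and the other receptors without a value were not analysed here. The atypical receptor ACKR3, which takes up CXCL12, was among those that rose. It stood at 0 and 0.13 TPM in A549 wild type in normal culture against 11.7 and 18.78 TPM with the knockout label. In H2023 normal culture it stood at 15.59 and 16.84 TPM against 2.9 and 3.43 TPM, and the authors' deposited table called it lower (log2 fold change -2.18, adjusted p = 5.76e-12), while limma did not (adjusted p = 0.11).

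Among 13 cytokines that induce these ligands, 1 rose and 2 fell in A549 normal culture, and 2 rose and 2 fell in A549 stem-cell-enriched culture. LTB, a ligand that activates NF-kB, stood at 11.77 and 6.42 TPM against 0.39 and 0.32 TPM in normal culture and fell in both cultures. IL32 stood at 41.91 and 27.55 TPM against 2.95 and 1.81 TPM in normal culture. IL11, of the IL-6 family, rose from 11.7 and 12.35 TPM to 106.41 and 59.82 TPM. With stem-cell-enriched culture limma called 4 of the 13 higher and 1 lower in A549 wild type, against 19.0% and 21.6% of all genes. In A549 labelled knockout it called 3 higher and 1 lower, IL11, against 10.9% of all genes higher and 1799 of 18227 lower. IL1B, a strong inducer of the members, rose in A549 wild type (0.39 and 0 TPM to 4.68 and 3.6 TPM) and in A549 libraries labelled knockout (0.26 and 0.12 TPM to 8.95 and 7.73 TPM). In H2023 wild type and labelled knockout 0 rose, against 3.96% and 7.68% of all genes. IL18 fell in both, where 3180 and 3495 of 18227 genes were called lower.

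Of 8 NF-kB subunits and kinases 0 passed by limma in any of the 4 comparisons with wild type, and in both H2023 comparisons limma called 0 genes of any kind. The authors' deposited tables called 2 of them lower in A549 normal culture, where 10.9% of all genes were. These were NFKB1 and NFKB2, with log2 fold changes of -0.75 and -0.78. In the authors' deposited tables NFKB1 was also lower in A549 oncospheres (-0.68, adjusted p = 0.017) and REL, another subunit, in H2023 normal culture (-0.63, adjusted p = 0.0413). Of all genes 11.4% and 6.97% were called lower there. Of 13 inhibitors and feedback genes, 3 fell in A549 normal culture by limma, and 6 were lower and 1 higher in the authors' deposited table. That table called 10.9% of all genes lower and 1838 of 16460 higher. BIRC3, an NF-kB target that blocks cell death, stood at 46.84 and 41.73 TPM in wild-type libraries against 10.55 and 5.85 TPM. NFKBIZ, a nuclear cofactor of NF-kB, stood at 4.3 and 7.8 TPM against 24.78 and 31.32 TPM in H2023 oncospheres. It was the only one called there by the authors' deposited table (adjusted p = 5.13e-08), where 2.22% of all genes were called higher. Medians over the 13 were -0.33 in A549 normal culture, -0.02 in A549 oncospheres, 0.16 in H2023 normal culture and 0.41 in H2023 oncospheres. Over all genes they were -0.03, 0.03, 0.01 and 0.06 in the same order.

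Of 23 upstream receptors and adaptors, 1 fell in A549 normal culture, and 3 rose and 1 fell in A549 stem-cell-enriched culture by limma. TLR4, the receptor for lipopolysaccharide, rose from 0.34 and 0.62 TPM to 3.46 and 2.43 TPM there. In H2023 stem-cell-enriched culture it stood at 0.42 and 0.1 TPM against 2.27 and 3.73 TPM and was called higher in the authors' deposited table. Of 14 decay and stability factors 1 fell in A549 normal culture, ZC3H12A itself. In A549 stem-cell-enriched culture 1 rose and 2 fell. The pair that fell were ZFP36, at 71.29 and 93.45 TPM against 30.04 and 29.49 TPM, and ZFP36L2, at 26.19 and 27.33 TPM against 11.27 and 9.88 TPM. Both encode proteins that bind AU-rich elements and promote decay. ZC3H12C rose, from 2.95 and 2.84 TPM to 5.66 and 6.02 TPM. ZFP36L1, of the ZFP36 family, was called higher in the authors' deposited tables in A549 normal culture (log2 fold change 0.78). It was also higher in H2023 normal culture (0.39) and H2023 oncospheres (1.06). These tables called ZFP36L2 lower in A549 normal culture (-0.67) and ZFP36 lower in H2023 normal culture (-0.51).

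The members tracked one another across the 16 libraries. Pearson's r of log2(TPM + 1) was 0.94 for CXCL2 with CXCL3, 0.922 for CXCL1 with CXCL8 and 0.342 for CXCL5 with CCL20, the lowest of the 21 pairs. The points share lines, cultures and clones, so these coefficients are descriptions of the set of libraries. Among 12977 genes with at least 5 TPM in some library, the gene most like CXCL8 outside the 7 was PTGS2 (r = 0.969), which encodes cyclooxygenase-2. For CXCL1 it was EFNA5 (r = 0.927), followed by AQP3 (r = 0.907) and IRAK2 (r = 0.896), for CXCL2 SEC11C (r = 0.961), and for CXCL3 NOSTRIN (r = 0.919). For CCL2 it was CHKA (r = 0.889), for CCL20 RNF113A (r = 0.961), and for CXCL5 an unnamed gene, ENSG00000287037 (r = 0.964), followed by DMTN (r = 0.953) and SPDEF (r = 0.948).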

How the data were processed

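RNA-seq of 16 libraries was used as 4 tables deposited by the authors, 1 per line and culture. The expression values are TPM computed by the authors and deposited per library. HISAT2, StringTie and GRCh38 are named in the submitters' processing notes, and their settings and the gene annotation are not given in the sources used here. Libraries were stranded mRNA preparations, per the labels' protocols. The log2 fold changes with standard errors, p-values and adjusted p-values, a mean normalized count (a signal averaged over 4 libraries) and a test statistic (a score) were deposited by the authors under the column names DESeq2 uses, per the file headers. 119 identifiers stood in several rows, and the first row of each was kept, leaving 18227 genes. The line of a library was read from its table's name.

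Differences were tested with limma 3.58.1 in R 4.3.3 on log2(TPM + 1), allowing the variance to follow the mean, two-sided, with no filter on low values, and Benjamini-Hochberg adjustment over all genes at 0.05. Such differences understate changes of low genes. Comparisons with wild type used the 4 libraries of a table and culture comparisons the 8 of a line. Differences between knockout effects were deposited log2 fold changes subtracted and divided by their combined standard error, with a normal distribution. The procedure was tested on simulated data. TPM keeps no depth, so no counting interval was set. Promoters came from RefSeq and 3′ UTRs and coding sequences from GENCODE, aligned with Biopython 1.88. All members are named in every comparison, and from other lists up to 3 genes per comparison with the largest difference among those called by limma or the deposited table at 1 TPM or more. The members and lists were chosen with earlier results of these data known. Alternatives were pseudocount, filter, centring, removal of mitochondrial genes, other sets of libraries in the fit, the deposited p-values, the replicate number as a block, and leaving out each library.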

Additional observations from a re-analysis of the deposited data

Results flagged for a closer look

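In A549 the knockout effect, as log2 fold change, differed between cultures (stem-cell-enriched minus normal, from the authors' deposited fold changes) by 3.8 for CXCL1 (adjusted p = 1.54e-04), 1.24 for CXCL2 (0.0129), 1.78 for CXCL5 (0.024), 2.61 for CXCL8 (0.0451) and 2.99 for CCL2 (5.63e-14). In H2023 it differed by 1.23 for CXCL1 (adjusted p = 0.00178).

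Between the lines (H2023 minus A549) the effect in normal culture differed by 4.75 for CXCL1 (adjusted p = 4.43e-53), 2.42 for CXCL2 (4.15e-09), 3.53 for CXCL3 (6.70e-18), 4.37 for CXCL5 (5.47e-81), 2.47 for CXCL8 (5.39e-06) and 3.17 for CCL2 (1.92e-20). In stem-cell-enriched culture it differed by 2.19 for CXCL1 (adjusted p = 0.0448), 1.71 for CXCL2 (0.0012), 2.48 for CXCL3 (0.0167) and 3.45 for CXCL5 (1.82e-07). All 16 are adjusted over the genes tested, and each rests on 4 groups of 2 libraries and 1 or 2 clones.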

How the results depend on the processing

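Beside the number of the 7 ligands called in the text, these settings gave another number. Against wild type, limma over 8 libraries called 6 in A549 normal culture, losing CCL20. In A549 stem-cell-enriched culture it called 4 over 8 or all 16 libraries, adding CCL20, and 5 with the replicate number as a block, adding CXCL8 (adjusted p = 0.038) and CCL20 (0.0189). In H2023 normal culture it called 1 with a filter at a mean of 1 TPM, as did the authors' deposited table. In H2023 stem-cell-enriched culture it called 2 over 8 libraries and 1 over all 16, and the authors' deposited table called 2. The culture comparisons fitted on 4 libraries called 3 in A549 wild type, adding CXCL8 (0.00934), 5 in A549 labelled knockout, losing CXCL3 (0.0769), 1 in H2023 wild type, losing CXCL5 and CXCL8, and 4 in H2023 labelled knockout, with CXCL2 (0.0293) in place of CCL2. With a pseudocount of 0.1 the number was 4 in H2023 wild type, adding CCL20, and 4 in H2023 labelled knockout, with CCL20 in place of CCL2. For differences of knockout effects the limma interaction called 2 (3 with the replicate block) between A549 cultures, 0 (0 with the block) between H2023 cultures and 2 (1 with the block) between lines in stem-cell-enriched culture. Between lines in normal culture it called 7, with or without the block. CXCL5 in the H2023 wild type culture comparison had an adjusted p of 0.0525 with the block, leaving 2 called, and the other member calls against wild type and between cultures were as without it. The labels do not say that a replicate number marks a shared batch or day. Deviations of same-numbered libraries correlated at 0.037 to 0.476 between genotypes and 0.106 to 0.165 between cultures, over 2 numbers, so the main tests carry no block. With 1 library left out the number called was 0 in each comparison with wild type, 0 to 1, 5 to 7, 1 to 3 and 3 to 4 in the culture comparisons (A549 wild type, A549 labelled knockout, H2023 wild type, H2023 labelled knockout), and 1 to 4, 0, 5 to 7 and 1 to 4 for the differences. A lone library is then assumed to vary like the other groups. Of the values of single ligands, 427 of 462 under other settings and 291 of 428 with a library left out kept direction and side of the threshold. Signs turned for differences that had not passed: CCL20 in H2023 stem-cell-enriched culture was -0.14 in the authors' deposited table, and ranges with 1 library left out crossed 0 there (-0.73 to 0.93), for CXCL8 (-0.65 to 0.65) and CXCL3 (-0.26 to 0.5) in the same culture, CCL2 in A549 stem-cell-enriched culture (-0.22 to 0.31), CXCL1 (-0.13 to 0.03), CXCL2 (-0.65 to 0.22) and CXCL3 (-0.57 to 0.51) in H2023 normal culture, the culture differences of CCL20 in A549 labelled knockout (-1.23 to 1.67) and CXCL2 in H2023 wild type (-0.3 to 0.57), and the differences of effects of CCL20 in A549 (-2.12 to 0.78) and CXCL3 in H2023 (-0.39, and -0.23 without knockout-labelled oncosphere replicate 2, to 0.69). Apart from the settings named, the cause was not tested. Depth is unknown, so 0 TPM sets no limit.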
